A study of Mus musculus with 12 samples.

Results

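The MHC class II presentation genes described here are H2-Aa, H2-Ab1, H2-Eb1, Cd74, H2-DMa, H2-DMb1 and Ciita, taken by symbol from count tables of cells from mouse Colon26 tumours. All 7 symbols were found among the 19921 in the tables. The tumours grew under the skin of wild-type BALB/c mice that had received 200000 cells of Colon26, a mouse colon carcinoma line, and were taken on day 10. The 4 groups of 3 mice were control (Ct), minP1 (a peptide of the HMGN1 protein that stimulates immune cells, 0.08 µg into the peritoneum on day 9), anti-PD-L1 antibody (PDL1, 200 µg by the same route on days 4 and 8), and both agents at those doses and days (minP1_PDL1). The labels give no further detail of what control mice received, and name the peptide of the combined group in the sample titles only. Each library came from 1 mouse, and the labels call the material total cells although their protocol removes tumour and dead cells on Percoll, so the counts describe the cells that remained. The libraries read the 5′ end of each transcript, so a count stands for a transcript end and needs no correction for length.

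MHC class II molecules display peptides from endosomes to CD4+ T cells. An alpha and a beta chain pair in the endoplasmic reticulum and are held by the invariant chain, Cd74, which fills the groove and carries the complex to endosomes. There proteases cut the invariant chain down to a short fragment, and the DM heterodimer removes that fragment and edits which peptides stay bound. Transcription of these genes is governed by Ciita, a coactivator without DNA binding of its own that docks on a promoter complex over the so-called X and Y boxes, and interferon gamma induces it in many cell types. Dendritic cells, B cells and activated macrophages are known as the main carriers of class II in tumours.

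In the mm10 build (GENCODE M21), 5 members lie on chromosome 17 within 197134 bases, from 34119541 to 34316674. These are H2-DMa (34119541 to 34139101, plus strand), H2-DMb1 (34153072 to 34160230, plus), H2-Ab1 (34257689 to 34269419, plus), H2-Aa (34282744 to 34287823, minus) and H2-Eb1 (34305867 to 34316674, plus). Ciita is on chromosome 16 (10480059 to 10528418, plus). All 7 are annotated as protein coding.

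Promoter windows of RefSeq (GRCm38.p6, the same build) were at hand for 4 of the 7 members. Those of H2-DMb1 (higher in the comparisons below), H2-Eb1 (lower) and H2-Aa (without a call) are shown. Each held a Y box in the bases searched, and only H2-Eb1 and H2-DMb1 among them an X box. Whether the boxes bear on the levels was not tested. Capitals mark matches to the Y box core ATTGG or the X box (AG, any 2 bases, AC, any base, GATG) on either strand. The windows of H2-Aa (chr17:34287824-34287943, minus strand) and H2-Eb1 (chr17:34305747-34305866, plus strand) are the 120 bases before the RefSeq start. For H2-DMb1 (chr17:34153091-34153120, plus strand) 30 bases around the X box are shown, since the GENCODE model of that gene begins 119 bases upstream of the RefSeq one and already includes them.
H2-Aa: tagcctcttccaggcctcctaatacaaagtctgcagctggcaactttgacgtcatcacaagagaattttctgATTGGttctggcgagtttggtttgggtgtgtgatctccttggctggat
H2-Eb1: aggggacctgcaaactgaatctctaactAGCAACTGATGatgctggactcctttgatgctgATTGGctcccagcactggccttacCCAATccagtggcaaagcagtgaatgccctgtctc
H2-DMb1: tacctAGTAACTGATGatgctaggctgatt
H2-Eb1 and H2-DMb1 both held an X box followed by a Y box, with 22 and 23 bases between them. H2-Aa held the Y box, 48 to 44 bases before the start, and no match to these X box letters. The 2 windows of H2-DMa held no X box, and 1 of them a Y box, 198 to 194 bases before the start. Over the 120 bases before the start, an X box was found in 0.341% of the 32851 windows in the table, a Y box in 21.29% and both in 0.0822%. Over the 250 bases searched, the shares were 0.816%, 33.85% and 0.2922%. These matches describe letters and not binding.

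Library totals ran from 133917 to 473273 counts, a 3.53-fold range, and the combined group had the lowest sum (506616, against 1134230 in control). Genes detected at equal depth numbered 11069 ± 518 in control and 10083 ± 328 in the combined group (SD, n = 3). Levels below are CPM, the counts of a gene per 1000000 TMM-scaled counts in tested genes. Tests are edgeR's quasi-likelihood test with Benjamini-Hochberg adjustment over the 5443 genes that passed its low-count filter and a threshold of 0.05, and a value after ± is an SE for a log2 fold change and an SD for a level or share. H2-Aa, H2-Ab1, Cd74, H2-DMa and H2-DMb1 passed the filter. H2-Eb1 (57 counts in all) and Ciita (8 counts) did not, and are given by their counts and by a fit to all 19921 genes. Since tumour RNA was sequenced in bulk, fewer cells of a type and less RNA per cell cannot be told apart.

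Against control, the combination raised 1 of the 5 tested members, H2-DMb1, where 34.8% of all genes tested passed (16.5% higher and 18.3% lower). In the fit to all genes, in which 5.66% were lower, H2-Eb1 was lower. The A-type chains H2-Aa and H2-Ab1 and the invariant chain Cd74 had higher means in the combined group, but their libraries overlapped those of control and their adjusted p-values lay between 0.0899 and 0.112 (unadjusted, 4 of 5 members were under 0.05). The median log2 fold change of the 5 was 0.87, and that of all genes tested was -0.06.

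**Figure D1:**
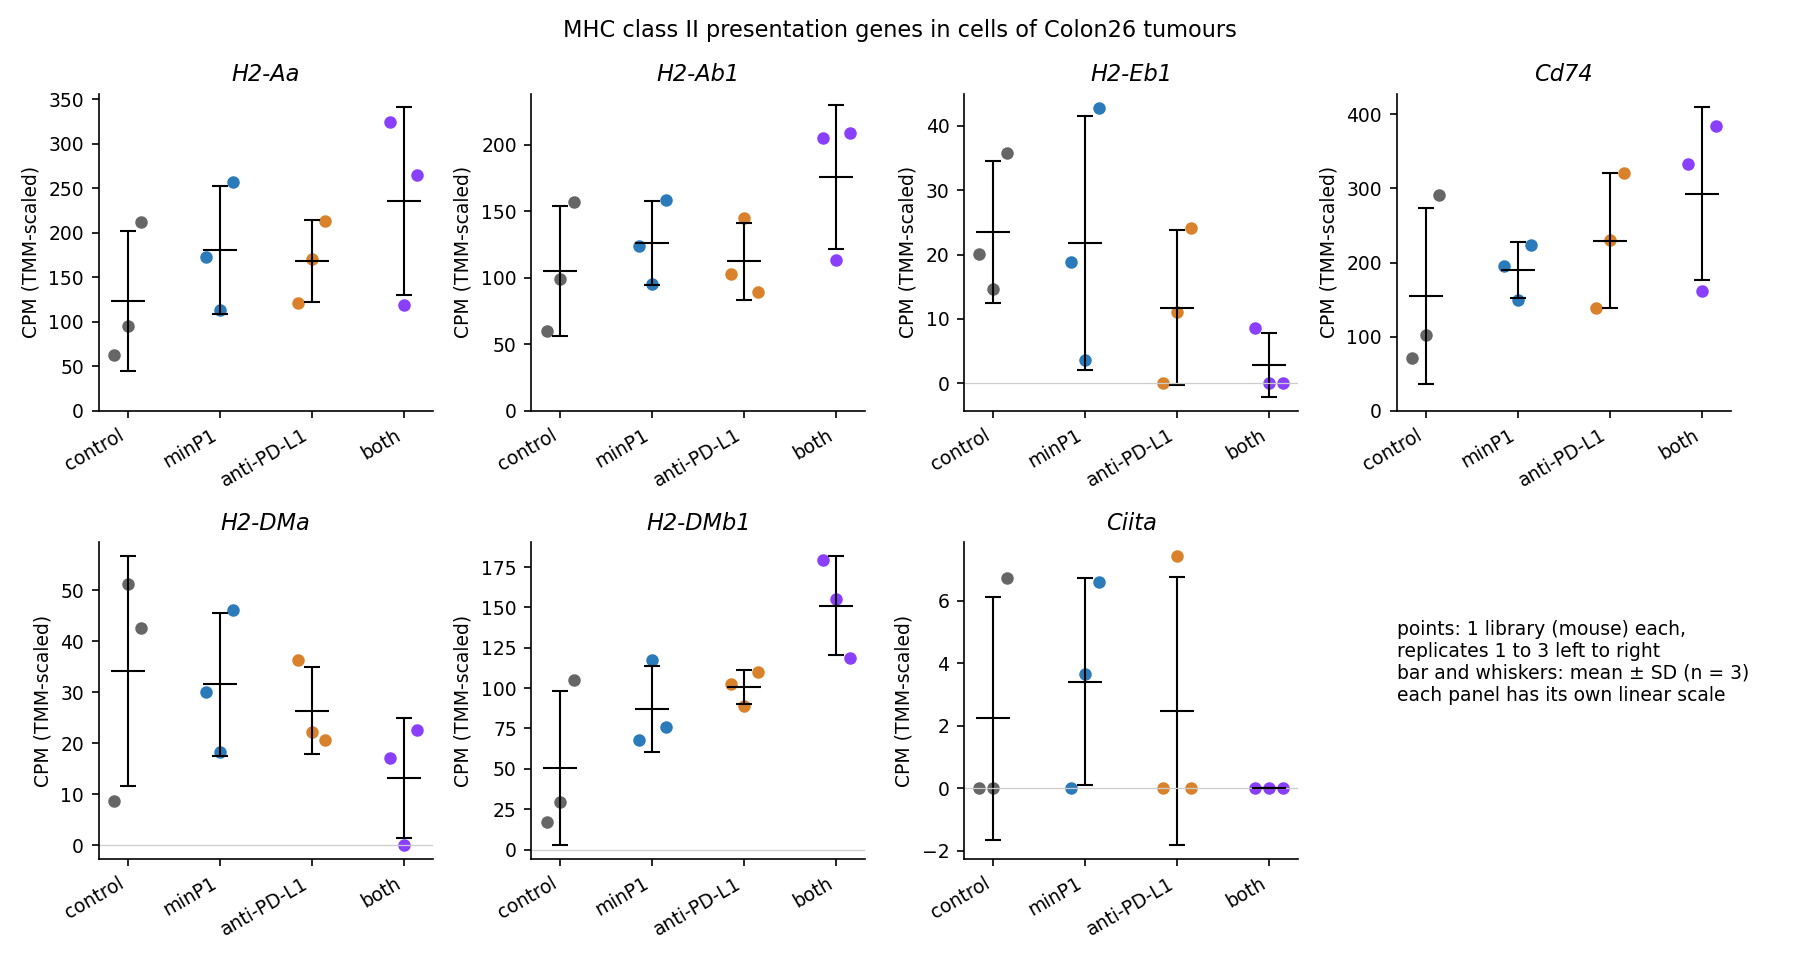
Level of each gene in CPM (y axis, 1 linear scale per panel) in the 12 libraries by group (x axis). Points are single mice and bars with whiskers are mean ± SD (n = 3). H2-DMb1 stood higher in the 3 combined libraries (118 to 179 CPM) than in the 3 control libraries (17.2 to 105 CPM), and H2-Eb1 lower (0 to 8.54 against 14.6 to 35.8 CPM).

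H2-Aa encodes the alpha chain of I-A, the class II molecule found in all mouse strains. Its level in replicates 1, 2 and 3 was 63.0, 95.1 and 213 CPM in control, 173, 114 and 257 CPM in minP1, 121, 171 and 214 CPM in anti-PD-L1, and 324, 119 and 265 CPM in the combined group. One control library, replicate 3, stood above all but 4 of the treated libraries, and combined replicate 2 stood within the control range. The log2 fold change against control was 0.52 ± 0.38 for minP1 (edgeR adjusted p = 0.819), 0.44 ± 0.39 for anti-PD-L1 (0.592) and 0.87 ± 0.40 for the combination (0.0899). Without control replicate 3 the combination reached 1.56 (adjusted p = 0.00734), and without combined replicate 2 it reached 1.27 (0.0248).

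H2-Ab1 encodes the beta chain that pairs with H2-Aa. It was at 60.1, 98.7 and 157 CPM in control, 124, 95.2 and 158 CPM in minP1, 103, 145 and 89.5 CPM in anti-PD-L1, and 205, 113 and 209 CPM in the combined group. Replicates 1 and 3 of the combined group lay above the 9 libraries of the other groups, and replicate 2 lay among them. The log2 fold changes were 0.24 ± 0.33 for minP1 (edgeR adjusted p = 0.932), 0.08 ± 0.34 for anti-PD-L1 (0.934) and 0.70 ± 0.34 for the combination (0.112). The sign for anti-PD-L1 was not stable (-0.01 with all libraries thinned to the same depth). The combination passed without control replicate 3 (1.14, adjusted p = 0.0254) and without combined replicate 2 (1.02, 0.0453).

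Cd74, the invariant chain (chromosome 18, 60803848 to 60812652, plus strand), was the most counted member, with 656 counts over the 12 libraries. Its level was 71.6, 102 and 291 CPM in control, 196, 150 and 224 CPM in minP1, 139, 230 and 320 CPM in anti-PD-L1, and 333, 161 and 384 CPM in the combined group. The libraries that stood high or low for H2-Aa did so here too: control replicate 3 was at the level of the treated groups, and combined replicate 2 lay within the control range. The log2 fold changes were 0.26 ± 0.39 for minP1 (edgeR adjusted p = 0.938), 0.56 ± 0.39 for anti-PD-L1 (0.471) and 0.87 ± 0.40 for the combination (0.0940). Without control replicate 3 the combination gave 1.75 (adjusted p = 0.00208), and without combined replicate 2 it gave 1.24 (0.0320). Up to 29 of the 76 stretches of 25 bases in the first 100 bases of Cd74 transcripts also occur in transcripts of other genes, so its counts could hold reads of others. None of the other members' coding transcripts shared such a stretch. For H2-DMb1 the GENCODE transcript searched begins upstream of the RefSeq start, which limits the search as described below.

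For these 3 genes the order of the means was not the same throughout. Control was lowest and the combination highest for each, with minP1 above anti-PD-L1 for H2-Aa (181 ± 72.0 and 168 ± 46.4 CPM) and H2-Ab1 (126 ± 31.5 and 112 ± 28.7 CPM) and below it for Cd74 (190 ± 37.2 and 230 ± 90.6 CPM). Neighbours in these orders differed by less than the SD of at least 1 of the 2 groups compared, the step of H2-Ab1 from minP1 to the combined mean (176 ± 54.0 CPM) included.

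H2-Eb1 encodes the beta chain of I-E, the other class II molecule of BALB/c mice. It was counted 7, 4 and 16 times in the control libraries, 5, 1 and 13 times with minP1, 0, 3 and 7 times with anti-PD-L1, and 1, 0 and 0 times with the combination. In CPM that is 20.0, 14.6 and 35.8 in control, 18.8, 3.66 and 42.8 with minP1, 0, 11.1 and 24.1 with anti-PD-L1, and 8.54, 0 and 0 with the combination. No combined library reached the lowest control library, and the lone treatments overlapped control. Groups of combined and control libraries did not overlap, with the combined lower, for 25.5% of the genes tested. H2-Eb1 did not pass the filter and is not among those genes, so the share is not one of genes counted as rarely.

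At the control rate the combined libraries would have given 11.7 counts of H2-Eb1 in place of 1, a ratio of 0.0857 with an exact 95% counting interval from 0.00209 to 0.520. For anti-PD-L1 the ratio was 0.546 (0.236 to 1.16) and for minP1 0.893 (0.469 to 1.67). A library at 0 allows up to 3 counts, which is 15.3 and 17 CPM of the total in the 2 combined libraries and so above the lowest control. In the edgeR fit to all 19921 genes the log2 fold change of the combination was -3.29 ± 1.03 (adjusted p = 0.0198), where the median of all genes was -0.29. The values for anti-PD-L1 (-0.82 ± 0.63, adjusted p = 0.808) and minP1 (-0.13 ± 0.55, adjusted p = 1) did not pass.

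The H2-Eb1 call was lost with DESeq2 (log2 fold change -3.32, adjusted p = 0.0994), with counts thinned to the same depth (-2.52, 0.249), and without control replicate 3 (-2.77, 0.148), combined replicate 2 (-2.75, 0.138) or combined replicate 3 (-2.70, 0.132). It was also lost with the covariates described below, at -1.88 (adjusted p = 0.600) with the level of Bc1 and -2.63 (0.439) with the number of genes detected. The reference build is of the strain C57BL/6J, class II genes differ between strains, and how reads were matched is not given in the sources used here. The part of this in the H2-Eb1 counts was not tested. An antisense gene, Gm20513, overlaps 2204 bases of H2-Eb1 on the opposite strand, and whether counting used strand is not given either.

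H2-DMb1 encodes the beta chain of the DM peptide editor. Its level was 17.2, 29.3 and 105 CPM in control, 67.7, 117 and 75.7 CPM with minP1, 103, 89.0 and 110 CPM with anti-PD-L1, and 179, 155 and 118 CPM with the combination. Each combined library stood above each of the 9 other libraries, while control replicate 3 lay among the treated ones. The means rose in the order control (50.6 ± 47.7 CPM), minP1 (86.9 ± 26.5), anti-PD-L1 (101 ± 10.8) and combination (151 ± 30.6). In 20.4% of the genes tested the combined libraries stood above all control libraries, in 16.6% above all minP1 libraries and in 12.4% above all anti-PD-L1 libraries.

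The log2 fold change of H2-DMb1 was 1.46 ± 0.43 for the combination against control (edgeR adjusted p = 0.0111), and it passed in all 12 fits that left out 1 library (1.09 to 2.68). It was 0.90 ± 0.43 for anti-PD-L1 (adjusted p = 0.266) and 0.69 ± 0.42 for minP1 (0.802). Without control replicate 3 the value for anti-PD-L1 was 2.13 (adjusted p = 0.00835). The combination did not pass against anti-PD-L1 (0.57 ± 0.42, adjusted p = 0.435) or against minP1 (0.78 ± 0.42, 0.190), so that the 3 treated groups could not be ranked. No stretch of 25 bases in the first 100 bases of the GENCODE transcript of H2-DMb1 was shared with its near copy H2-DMb2. That transcript begins 119 bases upstream of the RefSeq start, so the search does not show whether reads from the RefSeq start are distinct. H2-DMb2 had 3 counts in all libraries together.

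2 measures of the libraries moved with the groups beside H2-DMb1. Bc1, a short noncoding RNA, ranged from 7289 to 12433 CPM in control libraries and from 12165 to 37137 CPM in combined ones, and the number of genes detected at equal depth was lower there, as given above. With the log2 level of Bc1 as a covariate the log2 fold change of H2-DMb1 was 1.31 (adjusted p = 0.107), and with detected genes in its place 1.07 (0.336). With Bc1 in the fit H2-Aa (1.72, adjusted p = 0.00783), H2-Ab1 (1.41, 0.0119) and Cd74 (1.69, 0.00938) passed in its place, and with detected genes no member did. Of all genes tested, 15.6% passed with Bc1 and 7.84% with detected genes, against 34.8% without a covariate.

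H2-DMa encodes the alpha chain of the same editor. It was counted 3, 14 and 19 times in control, 8, 5 and 14 times with minP1, 6, 6 and 6 times with anti-PD-L1, and 2, 0 and 4 times with the combination. In CPM the control libraries were at 8.59, 51.2 and 42.5 and the combined ones at 17.1, 0 and 22.6, so control replicate 1 lay within the combined range. The log2 fold change of the combination was -1.34 ± 0.76 (edgeR adjusted p = 0.174), that of anti-PD-L1 was -0.41 ± 0.60 (0.767) and that of minP1 was -0.08 ± 0.56 (0.995). With detected genes as a covariate the combination changed sign (0.17). The gene model of H2-DMa overlaps that of Brd2, on the opposite strand, over 3094 bases.

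Ciita, the coactivator of the class II promoters, gave 3 counts in control, 3 with minP1, 2 with anti-PD-L1 and 0 with the combination. A total of 8 of the 12 libraries held none. The 0 of 506616 counts in the combined group allows up to 3 counts, or 5.92 CPM of the total, so no difference in Ciita was detectable at this depth. It overlaps Dexi on the opposite strand over 25888 bases.

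**Figure D2:**
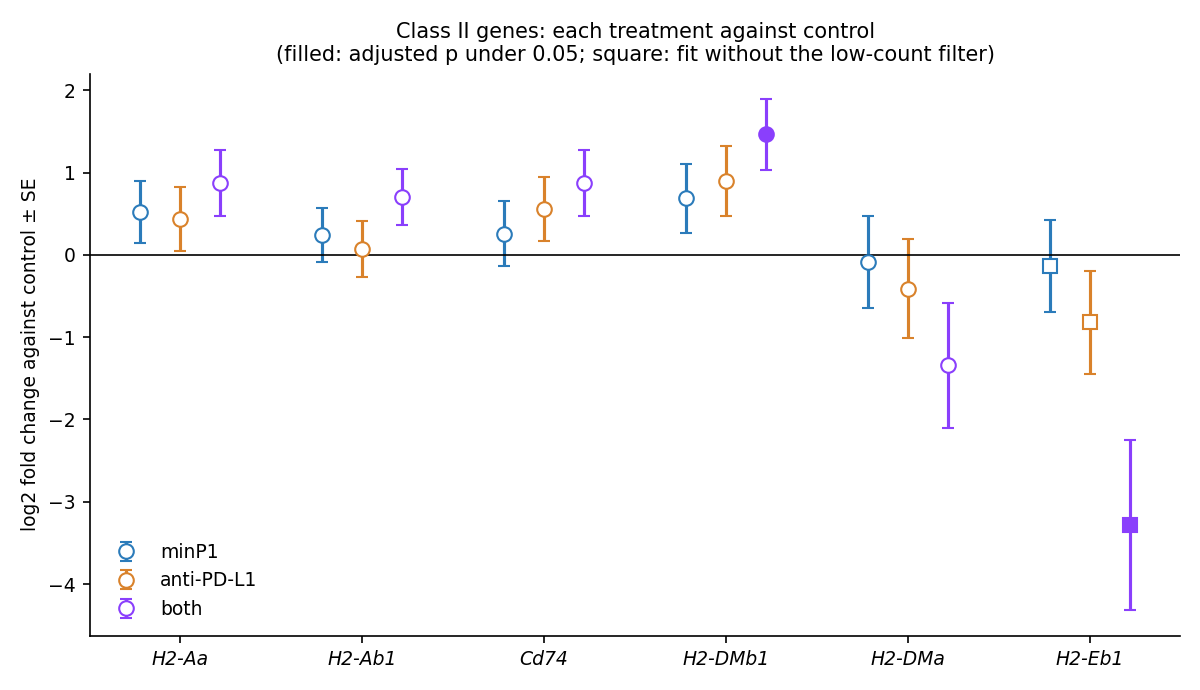
Log2 fold change ± SE (y axis) of 6 class II genes (x axis) in each treatment against control. Filled symbols passed an adjusted p of 0.05, and squares come from the fit to all genes. Both filled symbols, H2-DMb1 (1.46) and H2-Eb1 (-3.29), belong to the combination, and H2-DMa (-1.34) lies on the side of H2-Eb1 without passing.

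No member passed for minP1 against control (background 0%) or for anti-PD-L1 against control (background 1.12%) in edgeR, or with DESeq2. Unadjusted p-values were under 0.05 for 0 and 1 of the 5 tested members, the latter H2-DMb1. Adding the antibody to minP1 gave no member call (background 20%), and neither did adding minP1 to the antibody (background 6.94%), with either tool and with 0 of 5 under an unadjusted 0.05. H2-Eb1 came to -3.15 ± 1.07 for adding the antibody to minP1 (edgeR adjusted p = 0.0592), and passed without minP1 replicate 2 (-3.63, 0.0127) or combined replicate 1 (-5.63, 0.0408).

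The interaction, which asks whether minP1 changed a gene more in mice with the antibody than in mice without it, ran from -0.85 ± 1.003 (H2-DMa) to 0.39 ± 0.48 (H2-Ab1) for the tested members. None passed with edgeR or DESeq2, nor did any gene among all tested (background 0%), and 0 of 5 were under an unadjusted 0.05.

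Averaged over both peptide states, the antibody was accompanied by higher H2-DMb1 (0.84 ± 0.30, edgeR adjusted p = 0.0388), 1 of 5 tested members beside 12.4% of all genes higher. H2-Eb1 was lower in the fit to all genes (-1.98 ± 0.62, adjusted p = 0.0252, beside 4.54% of all genes lower). The H2-DMb1 call was lost with DESeq2 (0.88, adjusted p = 0.0754), and in 8 of the 12 fits that left out 1 library its adjusted p was between 0.0503 and 0.0782. The H2-Eb1 call was lost with DESeq2 (-2.06, 0.101), with thinned counts (-1.43, 0.367), with the Bc1 covariate (-0.84, 0.915), with the detected genes covariate (-1.49, 0.686) and in 6 of 12 such fits. The peptide averaged over both antibody states gave no member call (background 7.31%) with edgeR or DESeq2, with 1 of 5 under an unadjusted 0.05, again H2-DMb1 (0.63 ± 0.30, adjusted p = 0.202).

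The genes varied together unevenly among mice of a group. After group means were taken out, the Pearson correlation of log2 CPM over the 12 libraries was 0.94 between H2-Aa and Cd74, 0.85 between H2-Aa and H2-Ab1 and 0.78 between H2-Ab1 and Cd74. It was 0.25 between the DM chains. These are descriptions of 12 points that share the libraries and their depth. Cd74 was the second gene of all tested in likeness to H2-Aa, behind Ndrg1 (0.95), a hypoxia-induced gene, and ahead of Chd2, Prr13 and Ppp6r3.

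The 5 genes most like Cd74 were Ndrg1 (0.95), Gbp7 (0.95), Ly6a (0.95), H2-Aa (0.94) and Mt2 (0.93). Gbp7 is an interferon-induced guanylate-binding protein. H2-Ab1 was most like Prr13 (0.93), C1ra (0.91), Smarca5 (0.91), Gbp4 (0.91) and Mga (0.90). H2-DMb1 was most like Fstl1 (0.92), Zbtb7a (0.89), the immunoproteasome subunit Psmb9 (0.89), complement C3 (0.88) and the interferon-induced GTPase Igtp (0.86), and H2-DMa most like Srrm2, Pitpna, Gm34746, Prr13 and Ccdc127 (0.94 to 0.92).

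Ratios within a library do not depend on its scaling, and they set partner chains side by side. For each Cd74 count there were 0.667 to 1.15 counts of H2-Aa in the 12 libraries, a 1.72-fold range, while the levels of these genes ranged 5.15-fold (H2-Aa) and 5.36-fold (Cd74). H2-Aa made up 45.7% ± 3.11 of the H2-Aa and Cd74 counts in control, 47.8% ± 5.24 with minP1, 43.0% ± 3.28 with anti-PD-L1 and 44.3% ± 4.49 with the combination. The 4 means differed by less than the largest of these SDs. Other pairs varied more: the ratio ranged 2.48-fold for H2-Aa to H2-Ab1 and 3.45-fold for H2-Ab1 to Cd74.

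The DM chains varied more than these pairs, but H2-DMa had only 0 to 19 counts in a library, so counting error is large in their share. H2-DMb1 made up 66.7%, 36.4% and 71.2% of the H2-DMb1 and H2-DMa counts in the control libraries, 69.2%, 86.5% and 62.2% with minP1, 73.9%, 80.0% and 84.2% with anti-PD-L1, and 91.3%, 100% and 84.0% with the combination. Both groups that had received the antibody lay above all control libraries, and minP1 overlapped them. The means were 58.1% ± 18.9, 72.6% ± 12.5, 79.4% ± 5.18 and 91.8% ± 8.01. The difference of 33.7 percentage points between combination and control had an exact two-sided permutation p of 0.1, the smallest that 3 against 3 allows. Averaged over peptide states the antibody difference was 20.2 points (exact permutation within peptide state, p = 0.01, adjusted p = 0.08 over the 8 such comparisons), so it did not pass.

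H2-Eb1 made up 25%, 12.9% and 18.6% of the H2-Eb1 and H2-Ab1 counts in control, 13.2%, 3.70% and 21.3% with minP1, 0%, 7.14% and 21.2% with anti-PD-L1, and 4.00%, 0% and 0% with the combination. The combined libraries lay below all control libraries, and the lone treatments overlapped them. The combination differed from control by -17.5 points (exact permutation p = 0.1), and the antibody averaged over peptide states by -10.4 points (exact permutation p = 0.04, adjusted p = 0.133). These pairs were chosen after their levels had been seen, so the shares are no independent support for the calls above.

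**Figure D3:**
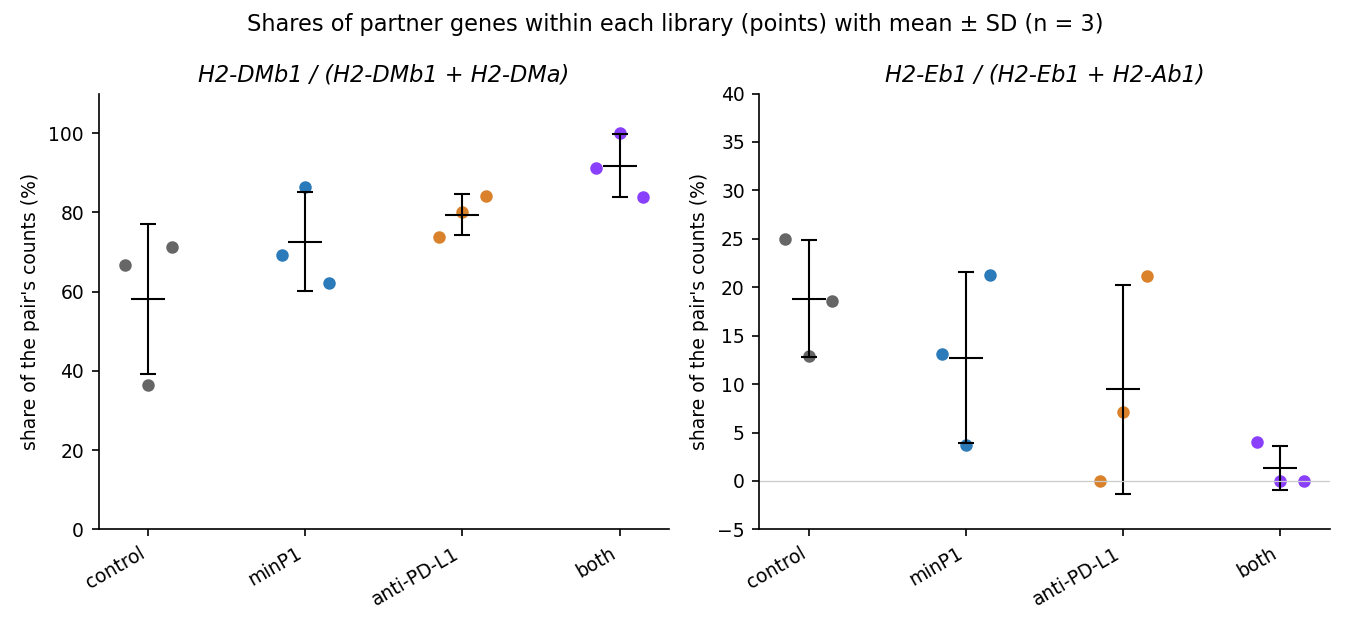
Share of H2-DMb1 in the counts of both DM chains (left) and of H2-Eb1 in the counts of both beta chains (right), in percent (y axes), by group. Points are libraries and bars with whiskers are mean ± SD (n = 3). The DM share was 58.1% in control and 91.8% in the combined group, and the H2-Eb1 share 18.8% and 1.33%.

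Of the other class II genes, none reached the low-count filter. H2-Eb2, a beta chain gene next to H2-Eb1, had 4, 9, 3 and 3 counts in control, minP1, anti-PD-L1 and combination. H2-Ea-ps, annotated as a polymorphic pseudogene of the I-E alpha chain, had 7, 7, 7 and 2 counts. The combined group had the lower summed depth, and the mean level of H2-Ea-ps was 5.69 ± 9.86 CPM there and 5.85 ± 5.07 CPM in control. The ratio of its combined counts to those at the control rate was 0.661 (exact counting interval 0.0670 to 3.47), so no fall was shown. The part of strain differences in the H2-Ea-ps counts was not tested, as for H2-Eb1. H2-Ob, the beta chain of the DM inhibitor, had 1 count and H2-DMb2 had 3. Of the receptors for class II on T cells, Cd4 had 0, 2, 2 and 6 counts and Lag3 had 3, 4, 8 and 5. In the fit to all genes Cd4 was higher with the combination (4.71 ± 1.58, edgeR adjusted p = 0.0346), beside 4% of all genes higher. That call rests on 0, 4 and 2 counts in the combined libraries and 0 in control. Lag3 did not pass (1.74 ± 1.12, 0.440).

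Beyond these genes, the endosomal machinery of the pathway was counted far more often. Of the 12 listed genes for antigen processing, 11 were tested, and against control the combination raised 5, Ctsl, Lgmn, Lamp1, Ctsb and Ctsz, with 0 lower (median of the 11, 0.57), beside 16.5% of all genes tested higher and 18.3% lower. Ctsl, an endosomal protease, averaged 1348 ± 312 CPM in control libraries and 4763 ± 1036 CPM in combined ones (log2 fold change 1.82 ± 0.23, edgeR adjusted p = 6.06e-06). The asparaginyl endopeptidase Lgmn rose by 1.38 ± 0.25 (0.000221). The lysosomal membrane protein Lamp1 rose by 1.27 ± 0.22 (0.000178), and the cathepsins Ctsb and Ctsz by 0.99 ± 0.24 (0.00344) and 0.96 ± 0.26 (0.00756).

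The protease most tied to invariant chain cleavage in antigen-presenting cells, Ctss, was at -0.64 ± 0.37 (edgeR adjusted p = 0.187), and the lysosomal thiol reductase Ifi30 at -0.80 ± 0.69 (0.384). Neither passed. Sppl2a, which clears the membrane stub of the invariant chain, was at 0.12 ± 0.28 (0.778).

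Of the 13 listed genes for class II transcription and interferon gamma signalling, 7 were tested. The combination raised Ifngr1, a chain of the interferon gamma receptor (1.68 ± 0.32, edgeR adjusted p = 0.000406), and Irf1, an interferon-induced factor that acts on Ciita (1.28 ± 0.33, 0.00477). The kinase Jak1, which works at that receptor, was lower (-1.30 ± 0.47, 0.0339). Rfx5, the DNA-binding subunit of the X box complex, was at 0.36 ± 0.51 (0.609). Irf1 was also higher with anti-PD-L1 alone, at 1.28 ± 0.32 (edgeR adjusted p = 0.04998, just under the threshold), from 143 ± 95.8 CPM in control to 354 ± 44.3 CPM. The tetraspanin Cd63 passed there at the same adjusted p (-1.50 ± 0.38), beside 1.12% of all genes tested. When 1 library was left out 0 to 2 pathway genes passed in this comparison, beside 1 to 169 of all genes.

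Tetraspanins, membrane proteins that associate with class II, were lower with the combination where they could be tested. Cd63 went from 233 ± 3.29 CPM in control to 11.4 ± 14.9 CPM (-4.13 ± 0.57, edgeR adjusted p = 1.38e-05) and Cd9 was at -1.43 ± 0.52 (0.0361). They were the 2 of the 12 genes listed for turnover and surface partners that passed the filter. Of the 20 other pathway genes tested, 10 passed for the combination against control, beside 34.8% of all genes tested. When detected genes entered as a covariate 5 passed, beside 7.84% of all genes tested.

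**Figure D4:**
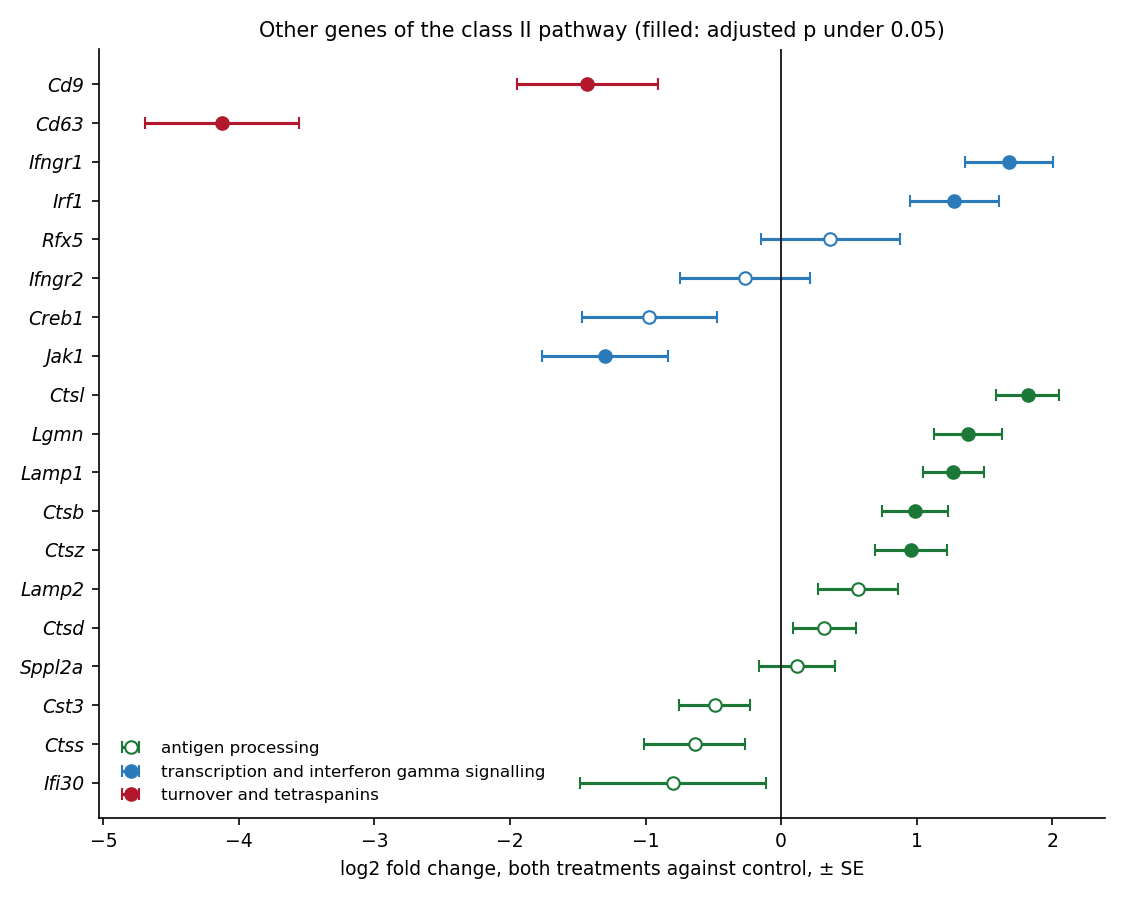
Log2 fold change ± SE (x axis) of other tested genes of the class II pathway (y axis) in the combined group against control, coloured by list. Filled points passed an adjusted p of 0.05. Ctsl (1.82) and Ifngr1 (1.68) lie farthest to the right and Cd63 (-4.13) farthest to the left, and Ctss (-0.64) did not pass.

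Markers of cells that carry class II moved unevenly with the groups. Of 11 listed dendritic cell genes 10 were in the tables, and their summed level was 95.1 to 152 CPM in control and 161 to 231 CPM in the combined group. Most of that sum was Fscn1 (68.9 ± 29.9 and 134 ± 34.8 CPM), which other cells also express. Zbtb46, Itgax, Ccr7 and Cd209a, which had 7, 6, 5 and 3 counts in control, were at 0 in the combined group, whose summed depth was lower (506616 against 1134230 counts). Batf3 (0 and 4 counts) and Irf4 (1 and 4) were counted more often there, and the means of Flt3 (7.54 ± 0.954 and 9.73 ± 9.05 CPM), Xcr1 (10.8 ± 9.54 and 13.3 ± 6.37 CPM) and Irf8 (22.7 ± 10.5 and 25.6 ± 26.7 CPM) differed by less than the SDs in the combined group. Of 8 B cell genes 6 were in the tables, with a sum of 15.7 to 25.8 CPM in control and 45.1 to 59.8 CPM in the combined group. Pax5 made up most of the combined sum (39.4 ± 4.86 of a mean of 50.9 CPM) but less of the control sum (7.75 ± 3.50 of 19.9 CPM). Cd22 had 7 counts in control and 1 in the combined group, and Ms4a1 (2 and 1) and Cd79b (0 and 1) were near 0.

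The 10 macrophage genes summed to 899 to 965 CPM in control and 1377 to 2629 CPM in the combined group, and the 6 monocyte genes to 984 to 1052 CPM and 1575 to 1844 CPM. Most of the monocyte sum was Fn1 (761 ± 29.2 and 1148 ± 198 CPM). The mean of Ccr2 was lower in the combined group (151 ± 14.5 and 131 ± 23.2), and those of Ly6c2, Plac8, F10 and Vcan were higher. Among the macrophage genes C1qc (1.26), Mrc1 (1.13) and Ms4a7 (1.59) rose on the log2 scale, while the means of C1qb (75.1 and 57.5 CPM), Mertk (17.7 and 7.57), Cd68 (4.35 and 1.99) and Fcgr1 (8.34 and 7.74) were lower in the combined group. The 6 neutrophil genes summed to 318 to 375 CPM and 507 to 606 CPM, and the T and NK cell genes, 7 of 8 in the tables, to 36.6 to 56.0 CPM and 137 to 248 CPM. Thy1 made up most of the T and NK cell sum (32.6 ± 4.12 and 106 ± 31.6 CPM), and only 1 gene of that list was tested. Cd2 (3 and 18 counts) and Cd3e (1 and 6) were counted more often in the combined group. Cd8a (4 and 1), Cd3d (4 and 2), Cd3g (4 and 3) and Ncr1 (1 and 0) were counted less often, at its lower summed depth. In CPM the means of Cd3d (3.46 ± 3.36 and 4.73 ± 4.34) and Cd3g (3.40 ± 3.01 and 5.86 ± 5.97) were higher in the combined group. That of Cd8a was lower (3.19 ± 3.37 and 2.85 ± 4.93). All of these differences were within the SDs. Neutrophil genes went both ways: S100a9 (17.5 ± 19.9 and 175 ± 17.1 CPM), Mmp9 (3.39 ± 3.69 and 164 ± 58.8) and Csf3r rose, whereas Cxcr2, the highest of them in control, fell (276 ± 33.9 and 123 ± 11.4). Fibroblast and erythroid sums overlapped between these groups (919 to 1348 and 711 to 1127 CPM for the 6 fibroblast genes, 1414 to 2801 and 863 to 2274 CPM for the 7 erythroid genes). Of the 4 genes tested in each list 2 were lower and 0 higher, beside 18.3% of all genes tested lower. Hbb-b1 (194 ± 108 and 10.4 ± 11.4 CPM) and Hbb-b2 (101 ± 49.0 and 1.88 ± 3.26) fell, while Hba-a1 and Hba-a2, most of the erythroid sum, overlapped. Col1a2 fell (702 ± 54.9 and 400 ± 6.22), whereas the mean of Col1a1 was higher (224 ± 91.5 and 334 ± 145). Epithelial markers of the carcinoma, 4 of 5 in the tables, held 12 counts in control (3.66 to 15.7 CPM) and 10 in the combined group (0 to 59.7 CPM). Cdh1 had 9 and 1 counts, Krt19 2 and 1, and Krt8 1 and 1. Krt18 had 0 and 7, at 0 to 41.8 CPM in the combined libraries. In the fit to all genes Krt18 was higher (4.93 ± 1.56, edgeR adjusted p = 0.0218), beside 4% of all genes higher. The part of these cells in the class II levels was not tested.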

How the data were processed

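Per the labels, polyadenylated RNA was amplified and sequenced as 5′-end tags (Ion S5). The authors deposited 1 table of raw whole-number counts by gene symbol for each library. Bowtie2 2.2.5, R 3.6.1, DESeq2 and mm10 are named per the submitters' processing notes. Not given in the sources used here are their roles, the counting tool, its annotation, and how it treated strand and reads with several matches. No molecular identifiers are recorded, so intervals and floors (3 counts) cover counting error only.

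Groups follow the sample titles. Genes were filtered with filterByExpr of edgeR 4.0.16 (R 4.3.3), which kept 5443 and left 14478 untested, and scaled with TMM. The quasi-likelihood test was fitted to all 12 libraries, checked on simulated data, over 8 comparisons. DESeq2 1.42.0, RLE factors, no filter, the compared groups alone, a replicate block, 2 covariates, thinning to 133917 counts and left-out libraries were alternatives. Shares within pairs were compared by exact permutation over mice. Named genes are the 7 members, other class II genes with counts, pathway genes that passed or had the smallest p-values, and the 5 genes most like each tested member. The members and lists were chosen with earlier results of these data known. For 1 listed pathway gene the result is not reported here.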

Additional observations from a re-analysis of the deposited data

How the results depend on the processing

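With RLE factors in place of TMM, all 48 member fold changes kept direction and side of the threshold. Over all settings 42 of 970 refitted values changed sign, none of them with an adjusted p under 0.05. The number of members called for the combination against control, 1 of 5 tested, was 2 without the low-count filter, 3 with the replicate block, 3 with the Bc1 covariate, 0 with the detected-genes covariate, 3 without both minP1 replicate 2 and PDL1 replicate 1, and 1 to 4 when 1 library was left out. Of all genes, 34.8% passed in the main fit, 9.66% without the filter, 15.6% with Bc1 and 7.84% with detected genes. In numbers, 1892 genes passed in the main fit and 1433 to 2054 when 1 library was left out. No share of all genes is given for the replicate block or without both libraries, so those member counts have no background here. For the antibody averaged over peptide states, 1 was called, against 0 with DESeq2, 2 without the filter, 2 with the replicate block, 2 with Bc1, 0 with detected genes and 0 to 3 with 1 library left out. There 28% of all genes passed in the main fit and 7.51% without the filter. In numbers, 1522 genes passed in the main fit and 1116 to 1767 with 1 library left out. The other settings of this comparison have no share of all genes here. The Bc1 covariate gave 1 member for the combination against minP1, Cd74 (1.15, edgeR adjusted p = 0.0489), also without a share of all genes here. With 1 library left out, anti-PD-L1 against control gave 0 to 1 member, beside 1 to 169 of all genes. The averaged peptide gave 0 to 1, beside 76 to 516 of all genes.

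The replicate block added H2-Aa (0.95, edgeR adjusted p = 0.0239) and Cd74 (0.98, 0.0161) for the combination, and Cd74 for the averaged antibody (0.62, 0.0320). The labels do not say whether equal replicate numbers pair animals. Same-numbered libraries deviated together with correlations from -0.12 to 0.19, all positive among the libraries of replicate 3 (0.065 to 0.19). A total of 7 of 12 libraries correlated best with their own number.

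Sign changes were these, as log2 fold changes. With Bc1, H2-Eb1 gave 0.16 (minP1) and 0.36 (anti-PD-L1), H2-DMa 0.20 and 0.39, and the Cd74 interaction -0.072. With detected genes, H2-DMa gave 0.38 (minP1), 0.76 (anti-PD-L1), 0.17 (combination) and 0.27 (averaged antibody). Thinning gave H2-Eb1 0.049 (minP1), H2-Ab1 -0.012 (anti-PD-L1) and the H2-DMb1 interaction 0.16. Without both minP1 replicate 2 and PDL1 replicate 1, H2-Eb1 gave 0.36 and H2-DMa 0.18 (minP1), and the interactions -0.29 (Cd74) and 0.20 (H2-DMb1). The Cd74 interaction was -0.045 without the filter and -0.11 with the replicate block. Leaving out 1 library gave, for minP1 against control, -0.078 to 1.14 (Cd74), -0.033 to 0.69 (H2-Ab1), -0.52 to 0.26 (H2-DMa) and -1.12 to 0.34 (H2-Eb1), for H2-Ab1 with anti-PD-L1 -0.17 to 0.53, and for interactions -0.84 to 0.40 (Cd74), -0.79 to 0.27 (H2-Aa), -0.072 to 0.67 (H2-Ab1) and -1.36 to 0.29 (H2-DMb1). The causes were not tested. The alternatives for H2-Eb1 were run without the low-count filter, a choice made after seeing the data.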
